A study of Homo sapiens with 6 samples.

Results

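The snoRNA host genes are long noncoding RNA genes whose introns carry small nucleolar RNAs. They were taken from the deposited gene table by symbol: every row named SNHG followed by a number, together with GAS5, ZFAS1 and EPB41L4A-AS1. The rule found 28 of 58735 gene rows under 27 symbols, because SNHG28 stands on 2 Ensembl identifiers. Of these, 23 had enough reads to be tested, among 16116 genes tested in all. By the paper, the RNA came from MG63, an established human osteosarcoma cell line. The 3 siFUBP1 samples had received an siRNA that targets FUBP1 and the 3 siMock samples a negative control, each 48 h before the RNA was taken. FUBP1 encodes a nuclear protein that binds single-stranded DNA and RNA. All samples are given as this single line, without any other drug or allele in the labels. Which FUBP1 siRNA was sequenced is not given in the sources used here. The comparison asks which host transcripts differ in level once FUBP1 is knocked down.

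A snoRNA host gene is transcribed and spliced like a messenger RNA gene. The spliced-out introns are trimmed to snoRNAs, which guide chemical modification of ribosomal RNA: box C/D snoRNAs guide 2′-O-methylation and box H/ACA snoRNAs guide pseudouridylation. The related scaRNAs act on spliceosomal RNAs in Cajal bodies. Many host transcripts begin with a 5′ terminal oligopyrimidine (TOP) tract, as messenger RNAs of ribosomal proteins do, and many spliced host RNAs are short-lived because nonsense-mediated decay (NMD) degrades them. What is counted here is polyadenylated host RNA over the annotated exons of a gene, not the snoRNA. Some of these exons cover a nested snoRNA, so host RNA that retains an intron can be counted with the spliced RNA.

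FUBP1 itself had 3872, 4331 and 4282 reads in the siMock samples and 749, 752 and 926 reads in the siFUBP1 samples, so the labels and the targeted gene went the same way. Total counts lay between 16309900 and 17484313 per sample. The markers went largely against the labelled cell type. Of 5 osteoblast markers COL1A2 had 0 reads in every sample, ALPL at most 1 and SPARC at most 5, and COL1A1 had 769 to 2000. RUNX2, the transcription factor of the osteoblast lineage, had 0.384 to 0.490 CPM in siMock and 2.23 to 5.59 CPM in siFUBP1, and COL1A1 went the other way, with 108 to 118 and 45.4 to 45.7 CPM. A count of 0 allows up to 0.192 CPM in the sample with the smallest scaled library size, by counting error alone. The summed level of the 5 markers was 109 to 118 CPM in siMock and 47.8 to 51.5 CPM in siFUBP1, most of it COL1A1. Of 6 markers of epithelial, blood and endothelial cells, KRT8 had 1835 to 2143 CPM in siMock and 930 to 1040 CPM in siFUBP1, whereas EPCAM had at most 4.91 CPM, CDH1 1.35, PECAM1 0.674 and PTPRC 0.128, and CD3E was at 0. Whether the cells are MG63 was not tested, and these markers leave their identity in doubt. The part of these marker differences in the results below was not tested. In bulk RNA, more cells holding a transcript and more of it per cell cannot be told apart.

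The 5′ ends of the host transcripts are shown first, because the TOP tract is a sequence feature known from many host genes. In the GENCODE 29 annotation (GRCh38), 14 of the 28 member genes, or 50%, had at least 1 annotated transcript that begins with C followed by at least 4 pyrimidines, against 6.58% of all 58676 genes compared and 4.11% of lncRNA genes. By transcript the share was 13% of 253 in the members and 2.41% of 206694 in all genes. This definition was chosen after the values were seen. Below are the first 30 bases of 6 such transcripts, 5′ to 3′ on the transcribed strand, with the uninterrupted pyrimidine run in capitals. They were chosen to set 3 hosts that were higher in siFUBP1 (SNHG8, SNHG12, SNHG4) and GAS5, the most abundant, beside 1 that was lower (SNHG16) and 1 that did not pass the test (SNHG19).
GAS5-210 (chr1:173867960-173867989, minus strand): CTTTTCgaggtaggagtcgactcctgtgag
SNHG8-205 (chr4:118278758-118278787, plus strand): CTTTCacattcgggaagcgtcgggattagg
SNHG4-201 (chr5:139274102-139274131, plus strand): CCTTTCCCCTCCggcctctgccggtgctgc
SNHG12-202 (chr1:28581844-28581873, minus strand): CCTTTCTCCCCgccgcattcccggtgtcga
SNHG16-204 (chr17:76557769-76557798, plus strand): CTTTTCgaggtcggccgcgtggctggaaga
SNHG19-201 (chr16:2155329-2155358, minus strand): CTTTTCggggtcgagtccgagggggaagag

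For each gene the transcript with the longest run is shown. Such a start was annotated in 6 of 29 transcripts of GAS5, 1 of 5 of SNHG8 and 4 of 9 of SNHG4. It was annotated in 4 of 17 of SNHG12, 2 of 8 of SNHG16 and 1 of 1 of SNHG19. In the transcripts shown, the run was 6 bases long in GAS5, SNHG16 and SNHG19, 5 in SNHG8, 11 in SNHG12 and 12 in SNHG4. The first 11 bases shown for GAS5, which rose, and for SNHG16, which fell, are the same letters. Among tested members, the 12 with such a transcript had 9 higher, 1 lower and a median log2 fold change of 0.55, and the 11 without had 9 higher, 1 lower and a median of 1.00. At an adjusted p below 0.05, 30.1% of all genes tested were higher and 30.1% were lower. A matching start is a description of the annotated transcript and does not show where transcription began in these cells.

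Most host genes were higher after FUBP1 knockdown. By the quasi-likelihood test of edgeR, with p-values adjusted by the Benjamini-Hochberg method over all genes tested, 18 of 23 members were higher at an adjusted p below 0.05, 2 were lower and 3 did not pass. Of all genes tested, 30.1% were higher and 30.1% were lower by the same rule, and of the 2213 lncRNA genes tested 31.3% were higher and 14.1% were lower. The median log2 fold change of the 23 was 0.80, against 0.00 (0.00197) for all genes and 0.21 for lncRNA genes, and 82.6% of the members had a value above 0. A fold above 2 was passed by 8 members, all of them higher, where 8.16% of all genes and 19.5% of lncRNA genes were higher by that rule and 9.13% and 8.59% were lower. In 19 members every siFUBP1 sample lay above every siMock sample (32.2% of all genes) and in 2 every siFUBP1 sample lay below (31.7%). The number past a fold of 2 depended on single libraries: without siMock replicate 1, 5 members passed a fold of 2, and without siFUBP1 replicate 2, 4 did, namely SNHG1, SNHG7, SNHG8 and SNHG17. With a correction for GC content and gene length it was 4 as well, among them SNHG7, SNHG8 and SNHG17 but not SNHG1.

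**Figure D1:**
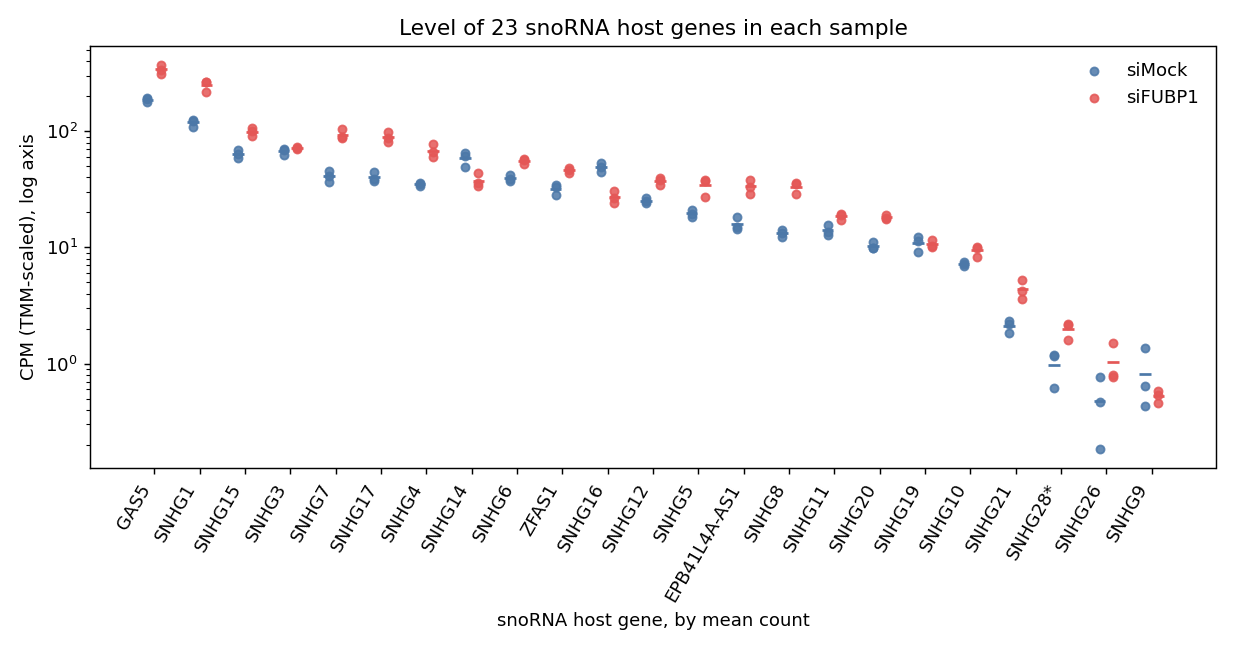
CPM of the 23 tested snoRNA host genes in each sample (y axis, log scale, library size scaled by TMM), with genes on the x axis ordered by mean count. Points are the 3 siMock and 3 siFUBP1 samples and short lines are group means. SNHG28* is ENSG00000256029. In 19 genes the siFUBP1 points lie above all siMock points, and in SNHG14 and SNHG16 they lie below.

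The summed level of the members was 879, 819 and 859 CPM in the siMock samples and 1415, 1429 and 1290 CPM in the siFUBP1 samples. The group means were 852 ± 30.8 and 1378 ± 76.8 CPM (SD, n = 3), a ratio of 1.62. GAS5 and SNHG1 together made up 35.8% of the members' reads in siMock and 42.6% in siFUBP1. Without both, the ratio of the summed level was 1.44. The reads of all members amounted to 0.0797% to 0.0851% of a siMock library and 0.132% to 0.151% of a siFUBP1 library.

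GAS5 (growth arrest-specific 5), a host of box C/D snoRNAs whose spliced RNA is a known TOP and NMD transcript, had the highest level. It had 3151, 3043 and 2937 reads in siMock and 6265, 5829 and 5482 in siFUBP1. The lowest siFUBP1 sample thus lay well above the highest siMock sample, and the level rose from 187 ± 7.10 to 340 ± 28.7 CPM (SD, n = 3), with a log2 fold change of 0.87 (SE 0.080, adjusted p = 6.60e-10 by edgeR). No snoRNA row is nested in GAS5 in this annotation, so its class could not be set from the coordinates.

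The box C/D hosts did not move in a single direction. By the named rows nested in them, 9 members held box C/D snoRNAs and no box H/ACA snoRNAs, and 8 of these were tested. Of the 8, 5 were higher and 2 lower, with a median log2 fold change of 0.51. This count leaves out GAS5 (0.87), which has no nested row here, and SNHG12 (0.57), which also holds box H/ACA rows. Both were higher. The shares over all genes were 30.1% higher and 30.1% lower. SNHG1, which holds the rows of SNORD25 to SNORD28, SNORD22 and SNORD30, had 2009, 1848 and 1966 reads in siMock and 4481, 4584 and 3780 in siFUBP1. Its groups stood apart, and the log2 fold change was 1.06 (SE 0.087, adjusted p = 7.37e-11). SNHG5 (0.80, SE 0.117), ZFAS1 (0.53, SE 0.094) and SNHG6 (0.49, SE 0.088), hosts of SNORD50B, SNORD12 family members and SNORD87, were higher too. SNHG26, host of SNORD93, had 3, 8 and 12 reads in siMock and 13, 26 and 14 in siFUBP1. Its log2 fold change of 1.11 (SE 0.48, adjusted p = 0.0486) rests on these few reads and passed the test in only 8 of 16 alternative settings.

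SNHG16 and SNHG14 were the members that fell. SNHG16, host of SNORD1A, SNORD1B and SNORD1C, had 804, 762 and 833 reads in siMock and 411, 534 and 465 in siFUBP1, a log2 fold change of -0.85 (SE 0.10, adjusted p = 4.77e-08). SNHG14, the long transcript unit at the imprinted SNRPN and UBE3A locus that carries 84 nested snoRNA rows, had 803, 1104 and 959 reads in siMock and 600, 587 and 758 in siFUBP1. The highest siFUBP1 sample was below the lowest siMock sample by a small margin, 43.4 against 49.2 CPM, and the log2 fold change was -0.64 (SE 0.107, adjusted p = 1.69e-05). UBE3A, a ubiquitin ligase gene on the opposite strand that shares 198 exonic bases with SNHG14, was higher (0.94, adjusted p = 3.54e-10), and SNRPN, on the same strand with 141 shared bases, did not pass the test (0.17, adjusted p = 0.510). SNHG19, host of SNORD60, had 149, 211 and 179 reads in siMock and 175, 202 and 177 in siFUBP1. Its groups overlapped, and its log2 fold change of -0.039 (SE 0.141, adjusted p = 0.831) took the other sign under other scalings.

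Of the 9 box H/ACA hosts, 7 were higher and 0 were lower by edgeR, against 30.1% of all genes higher and 30.1% lower. Also 0 were lower at an unadjusted p below 0.05 and in the alternative settings, and the median log2 fold change was 0.97. SNHG8, host of SNORA24, had the largest change in this fit, while SNHG7 was first with the GC and length correction (1.57 against 1.26) and the low-count SNHG26 without siMock replicate 3 (1.61 against 1.27). It had 218, 240 and 193 reads in siMock and 591, 625 and 499 in siFUBP1, that is 13.3 ± 0.884 and 33.2 ± 4.04 CPM (SD, n = 3), with a log2 fold change of 1.32 (SE 0.111, adjusted p = 1.32e-10). SNHG7, host of SNORA17A and SNORA17B, had 747, 696 and 576 reads in siMock and 1475, 1815 and 1559 in siFUBP1. Every siFUBP1 sample lay far above every siMock sample, with a log2 fold change of 1.19 (SE 0.093, adjusted p = 3.41e-11). SNHG17, host of SNORA71 family members, had 726, 661 and 582 reads in siMock and 1480, 1705 and 1402 in siFUBP1, with a log2 fold change of 1.14 (SE 0.092, adjusted p = 5.80e-11). In all 3 genes the groups were separated by more than the spread within either group.

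EPB41L4A-AS1, host of SNORA13, had 298, 256 and 224 reads in siMock and 562, 665 and 502 in siFUBP1, a log2 fold change of 1.07 (SE 0.117, adjusted p = 1.29e-08). EPB41L4A, the protein-coding gene on the opposite strand with 1659 shared exonic bases, was lower (-1.15, adjusted p = 4.72e-05). SNHG15, host of SNORA9, had 1133, 1001 and 997 reads in siMock and 1785, 1747 and 1578 in siFUBP1, a smaller change of 0.63 (SE 0.085, adjusted p = 5.12e-07). SNHG4, host of SNORA74A, lay just under a fold of 2 (0.97, SE 0.095), and SNHG11, host of SNORA60, was the smallest called change of this class (0.40, SE 0.118, adjusted p = 0.00462). SNHG3, host of SNORA73A and SNORA73B, had 1129, 1056 and 1095 reads in siMock and 1200, 1251 and 1266 in siFUBP1. Its siFUBP1 samples lay above its siMock samples only narrowly, at 71.1 to 72.5 against 62.1 to 70.1 CPM, and its log2 fold change of 0.099 (SE 0.081, adjusted p = 0.301) did not pass. SNHG9, host of SNORA78, had between 7 and 23 reads in any sample and did not pass either (-0.63, SE 0.475, adjusted p = 0.260). SNHG12, which holds SNORD99 and 4 box H/ACA rows, was higher (0.57, SE 0.095, adjusted p = 1.00e-05).

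The 3 tested scaRNA hosts were all called higher, where 30.1% of all genes were higher and 30.1% were lower. SNHG21, host of SCARNA15, had 30, 37 and 36 reads in siMock and 61, 91 and 73 in siFUBP1, a log2 fold change of 1.04 (SE 0.233, adjusted p = 3.98e-04). SNHG20, host of SCARNA16, rose by 0.83 (SE 0.12). SNHG10, host of SCARNA13, changed by 0.38 (SE 0.148, adjusted p = 0.0294), and it missed the threshold in 6 of 16 alternative settings. The SNHG28 row ENSG00000256029, which the annotation calls protein coding, had 10, 20 and 18 reads in siMock and 36, 38 and 28 in siFUBP1. Its log2 fold change was 1.00 (SE 0.34, adjusted p = 0.0131), just past a fold of 2.

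**Figure D2:**
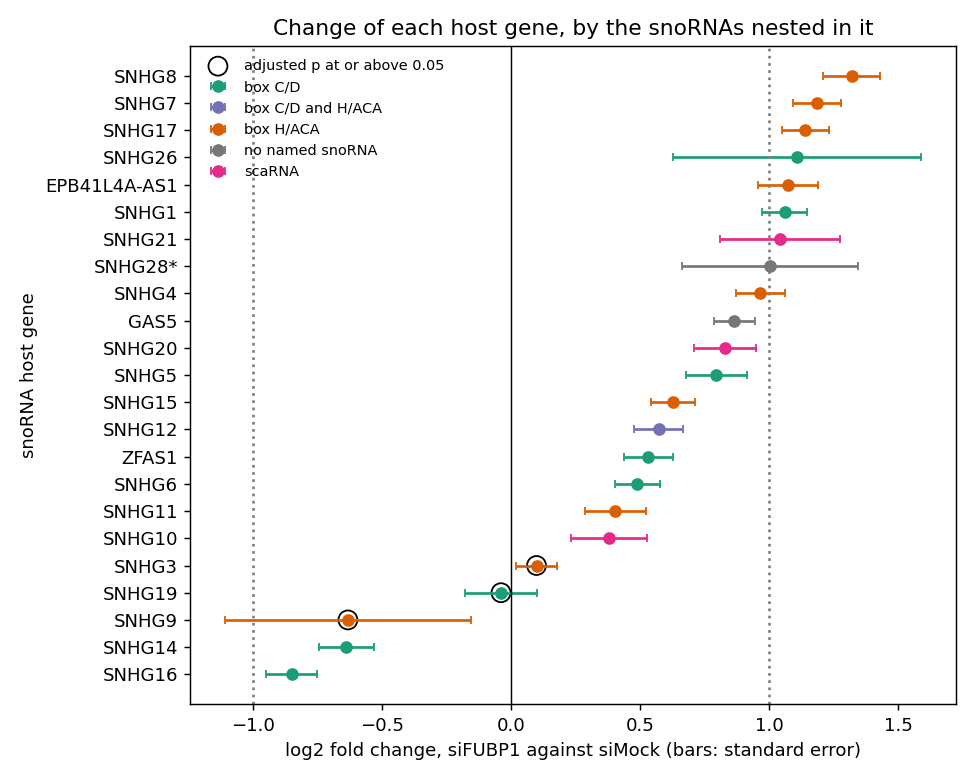
Log2 fold change of each tested host gene, siFUBP1 against siMock (x axis, bars are the standard error of the edgeR fit), coloured by the class of the snoRNA rows nested in the gene. Black rings mark the 3 genes that did not pass, dotted lines mark a fold of 2, and SNHG28* is ENSG00000256029. The values run from -0.85 in SNHG16 to 1.32 in SNHG8.

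The other 5 member rows held too few reads to be tested. SNHG22 had between 0 and 7 reads in a sample, SNHG25 between 0 and 3, and SNHG18 a single read in 1 siFUBP1 sample, while SNHG27 and the SNHG28 row ENSG00000188004 had 0 in every sample. All 2242 exonic bases of ENSG00000188004 are shared with the other SNHG28 row on the same strand, so its 0 cannot be read as absence. For the others no difference was detectable at this depth.

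Levels per length, given as the authors' FPKM, put the members in an order that changed with the knockdown. In siMock, GAS5 stood first with 50.8 ± 1.85 FPKM (SD, n = 3). SNHG19 (31.8 ± 4.92), SNHG1 (31.4 ± 2.35) and SNHG6 (31.2 ± 2.01) followed and did not differ from each other beyond their spread. SNHG15 (17.4 ± 1.41) and SNHG3 (16.2 ± 1.02) came next, also within their spread, and so did SNHG8 (14.2 ± 0.983) and ZFAS1 (14.1 ± 1.42). In siFUBP1 the first was again GAS5 with 93.1 ± 7.82 FPKM, followed by SNHG1 with 65.8 ± 7.48, SNHG6 with 44.1 ± 2.23 and SNHG8 with 35.8 ± 4.42. SNHG8 went from rank 7 to rank 4 of the 23, SNHG3 from rank 6 to 10 and SNHG16 from rank 11 to 16. The length behind these values is the union of all annotated exons of a gene, which can be longer than the transcript in use.

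Several members share exonic bases with other genes, and the library kit as described in the labels did not mark strand, so reads from overlapping stretches cannot be assigned to 1 gene. Among the 23 tested members, 13 share exonic bases with a protein-coding gene or another member. The 10 without overlap of that kind, GAS5, SNHG1, SNHG5, SNHG8, SNHG9, SNHG11, SNHG15, SNHG17, SNHG19 and SNHG26, had 8 higher, 0 lower and 4 with a fold above 2, with a median log2 fold change of 0.83. Both members that fell are in the group with overlap, in which 10 were higher and the median was 0.57. Over all genes tested, 30.1% were higher, 30.1% were lower and 8.16% were higher with a fold above 2. SNHG16 shares 1639 exonic bases with AC015802.6 and SNHG4 shares 626 with the MATR3 row ENSG00000280987, and neither of these rows was tested. SNHG7 shares 1094 with FAM69B on the opposite strand, which did not pass the test (-0.26, adjusted p = 0.489). SNHG3 shares 242 bases with RCC1 (0.18, adjusted p = 0.0385), SNHG20 shares 460 with SEC14L1 (-0.045, adjusted p = 0.635) and SNHG10 shares 391 with GLRX5 (0.070, adjusted p = 0.512). SNHG12 overlaps TRNAU1AP, which was lower (-0.50, adjusted p = 6.58e-05), by only 8 bases, and ZFAS1 overlaps ZNFX1 (0.16, adjusted p = 0.139) by 249. SNHG21, with 1053 exonic bases, shares 768 with AC105339.2 on the same strand and 359 with FSD2. The SNHG28 row ENSG00000256029 shares 2066 with SLAMF8 and 1192 with VSIG8. FSD2, SLAMF8 and VSIG8 were not tested. Of the 10 members without such a gene, 8 still share exonic bases with another row, 7 of them with a nested snoRNA row and GAS5 with GAS5-AS1. The part of shared reads in any of these values was not tested.

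The search for protein-coding genes that start within 1000 bases of a member on the opposite strand found 7, of which 6 did not pass the test. Among all genes tested, 30.1% were higher and 30.1% were lower. SLC3A2, which encodes the heavy chain of amino acid transporters, starts 188 bases from SNHG1 and had a log2 fold change of -0.19 (adjusted p = 0.0700). ZBTB37 beside GAS5 had -0.099 (adjusted p = 0.458) and ZNFX1 beside ZFAS1 had 0.16 (adjusted p = 0.139). TRAF7 beside SNHG19 had 0.012 (adjusted p = 0.903), RPS2 beside SNHG9 had 0.020 (adjusted p = 0.860) and ACAA2 beside SNHG22 had 0.12 (adjusted p = 0.168). The partner that passed was SEMA5A, a semaphorin gene beside the barely detected SNHG18. It had 2.50 to 3.31 CPM in siMock and 9.28 to 11.4 CPM in siFUBP1, a log2 fold change of 1.75 (SE 0.177, adjusted p = 3.76e-09). The difference between a member and its partner was not tested as such.

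The nested snoRNAs themselves were mostly not measured in these poly(A)-selected libraries. Of 136 distinct snoRNA and scaRNA rows inside the members, 103 had 0 reads in all 6 samples and 7 passed the expression filter. All 44 rows that lie in or reach into an annotated exon of their host were at 0, such as SNORA73A and SNORD12, whereas 33 of the other 92 had reads, such as SNORA73B and SNORD12B. A 0 at the first kind of row therefore cannot be read as absence of the snoRNA, and how reads shared by a host and a nested row were counted is not given in the sources used here. SNORD104, inside SNHG25, had 15, 25 and 10 reads in siMock and 10, 7 and 4 in siFUBP1, a log2 fold change of -1.31 (SE 0.475, adjusted p = 0.0200). The other 6 did not pass: SNORA71A, SNORA71B and SNORA71C inside SNHG17 had values of -0.11, 0.0020 and 0.38, SNORA73B inside SNHG3 had -0.13, SNORA60 inside SNHG11 had 0.076 and SNORD12B inside ZFAS1 had -0.83 (adjusted p = 0.102). None of the 7, SNORD104 included, had more than 25 reads in a sample. The values of these rows in the alternative settings were not examined. The standard errors of the 6 were 0.34 to 0.44, and that of SNORD104 was the largest. Of all genes tested, 30.1% were higher and 30.1% were lower.

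A list of 20 genes held snoRNP core and assembly proteins, which bind and mature the snoRNAs, and related nuclear proteins such as TCOF1 and COIL. Of these 20, 11 were higher, 1 was lower and 8 did not pass, with a median log2 fold change of 0.29. Among all genes, 30.1% were higher and 30.1% lower. TCOF1 (treacle) was the largest at 1.25 (SE 0.080, adjusted p = 6.90e-13), followed by NOLC1, a nucleolar phosphoprotein that binds snoRNPs, at 0.85 and GAR1, an H/ACA core protein, at 0.83. RUVBL1, an ATPase of the assembly complex, was higher by 0.78. Of the catalytic subunits, the pseudouridine synthase gene DKC1 was higher by 0.76 (adjusted p = 2.78e-09) and the methyltransferase gene FBL by 0.63 (adjusted p = 9.02e-08). NAF1, an H/ACA assembly factor, was lower (-0.59, adjusted p = 4.37e-05).

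Of 42 protein-coding genes that host snoRNAs in their introns, 6 were higher, 8 were lower and 28 did not pass, with a median of -0.019. Both shares are below the 30.1% of all genes that were higher and the 30.1% that were lower, a difference that was not tested. WDR43, a ribosome biogenesis factor, rose by 0.86, DKC1, itself a host, by 0.76, the mitochondrial chaperone gene HSPA9 by 0.49 and TAF1D by 0.45. The largest fall was in RPL10, a ribosomal protein gene, with 937 ± 34.3 CPM in siMock and 214 ± 29.8 CPM in siFUBP1 (SD, n = 3). Its log2 fold change was -2.13 (adjusted p = 4.62e-16). HSPA8, a cytosolic chaperone gene, had 1042, 1114 and 1231 CPM in siMock and 350, 214 and 481 CPM in siFUBP1, a log2 fold change of -1.70 (SE 0.335, adjusted p = 0.0118). EIF4A1, with a mean of only 120 reads, had a log2 fold change of -0.40 (SE 0.157, adjusted p = 0.0310 by edgeR). CHD8, with a mean of 1973 reads, had the same value (SE 0.079, adjusted p = 1.11e-04). The gene table also lists 19 pseudogene rows named after RPL10, 17 after HSPA8 and 13 after EIF4A1, and whether reads were split among them was not tested. The counts of this list moved with the scaling: 13 were higher and 5 lower when library totals alone were used, 13 were lower with the GC and length correction, and 5 were lower without siMock replicate 1. Of these genes, 23, or 54.8%, have a TOP transcript by the definition above.

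Of 21 NMD genes, 9 were higher, 5 were lower and 7 did not pass, with a median of 0.13, where 30.1% of all genes were higher and 30.1% were lower. UPF1, the helicase at the centre of the pathway, was lower (-0.87, SE 0.077, adjusted p = 2.64e-10), and so were NBAS (-0.79), SMG8 (-0.58) and SMG6 (-0.51), which encodes the endonuclease that cuts NMD targets. EIF4A3 of the exon junction complex was lower as well (-0.44). MAGOH, of the same complex, was the largest rise (0.93, adjusted p = 3.06e-09), followed by PNRC2 (0.48), SMG9 (0.48) and MAGOHB (0.39). These 3 lists were chosen with earlier results of the data known, and their counts are descriptions.

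**Figure D3:**
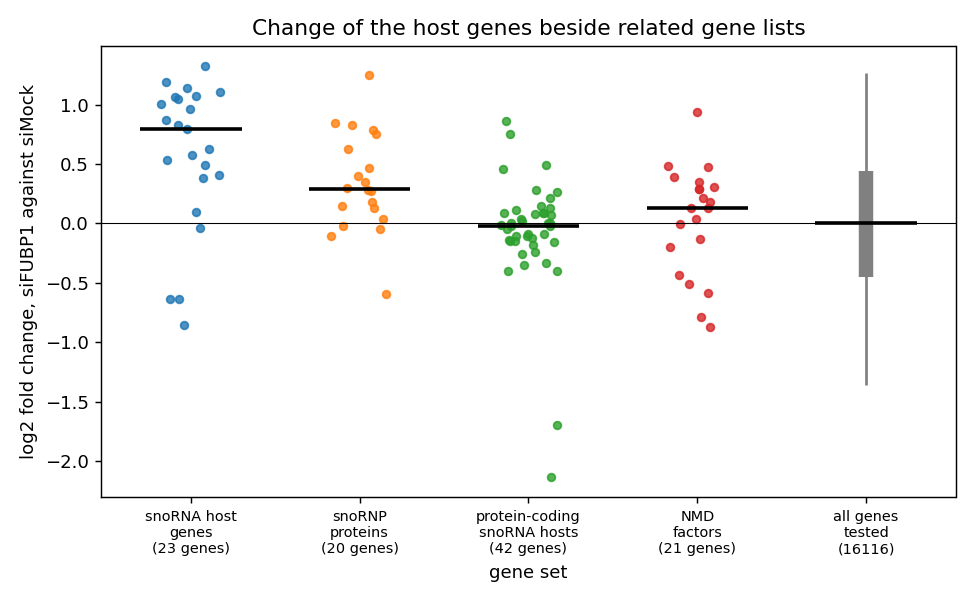
Log2 fold change, siFUBP1 against siMock (y axis), of each gene in 4 sets: 23 snoRNA host genes, 20 snoRNP and related protein genes, 42 protein-coding snoRNA hosts and 21 NMD genes. Black lines are medians (0.80, 0.29, -0.019 and 0.13), and for the 16116 genes tested the thick bar spans the quartiles and the thin line the central 90%.

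**Figure D4:**
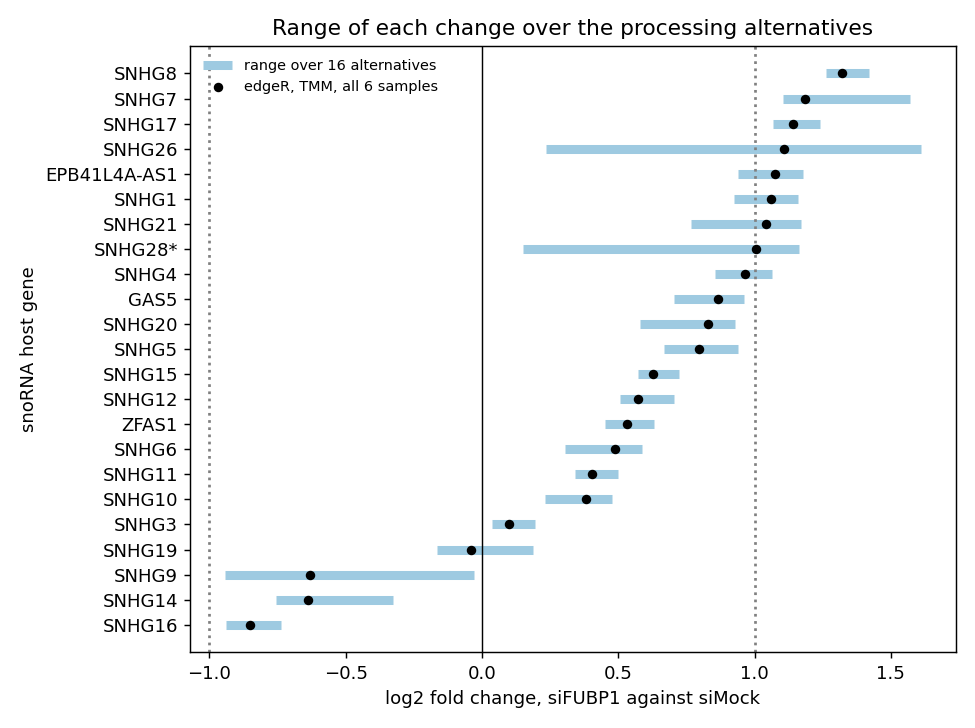
Log2 fold change of each tested host gene (x axis) by edgeR with all 6 samples (black points) and its range over 16 alternative settings (blue bars), with a fold of 2 marked by dotted lines. SNHG28* is ENSG00000256029. The bar of SNHG19 crosses 0, and those of SNHG26 and SNHG28 are the widest.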

How the data were processed

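RNA-seq of 6 samples was grouped by the deposited titles into 3 siMock and 3 siFUBP1 samples. The authors deposited read counts per gene for 58735 genes without normalization. They also deposited FPKM values computed from those counts and the gene length. GEO's processing notes name HISAT2 2.0.5, StringTie 1.3.3b, featureCounts 1.5.0-p3 and DESeq2 1.16.1, without their roles, and the use of strand in counting is not given in the sources used here. The table's columns of group means, log2 fold changes and p-values hold the authors' own comparison and were not used. Coordinates and lengths of 58724 genes match GENCODE 29 (GRCh38).

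Counts were compared with edgeR 4.0.16 (R 4.3.3): TMM scaling, the expression filter by group, the robust quasi-likelihood fit and Benjamini-Hochberg adjustment over 16116 genes. CPM values are counts scaled by the TMM-adjusted library size (factors 0.959 to 1.05). The test was checked on simulated counts. Calls used an adjusted p below 0.05, and a second rule added a fold above 2. An exact permutation test of 3 against 3 samples cannot go below p = 0.10 and was not used. Alternatives were DESeq2 1.42.0, limma 3.58.1 on log2(FPKM + 1) and log2(FPKM + 0.1), other scalings and filters, a stricter adjusted p of 0.01, a replicate block and fits without each sample in turn. A GC and length correction (span 0.3, fitted on genes that averaged at least 50 reads) and leaving out members with exonic overlap with a protein-coding gene or another member were added after seeing the data.

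The members and the 3 gene lists were chosen with earlier results of these data known. Every member is accounted for. Values in each sample are given for members past a fold of 2 and for the 6 with the highest mean count, and for some others chosen after their values were seen. From each list the text names up to 4 called genes in each direction with the largest change and at least 100 reads on average, and FBL, DKC1 and EIF4A3 were added after their values were seen. Neighbouring and overlapping genes, nested snoRNAs and TOP starts were searched in the annotation after the members' values were known. The labels do not say whether the samples came from separate cultures, and the paper's general statement on repeated experiments does not name these libraries, so p-values measure the spread between these samples, which may be technical. No 2 samples held identical counts, and replicates differed by more than sampling noise (chi-square per gene of at least 5.87). Intervals and limits from counts cover counting error only.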

Additional observations from a re-analysis of the deposited data

How the results depend on the processing

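Over 16 alternatives, 346 of 368 fold changes of the members kept their direction and their side of the threshold, and 18 of the 23 members did so under every one. SNHG10 lost its call in 6 settings, SNHG26 in 8 and SNHG28 (ENSG00000256029) in 2, and SNHG3 gained one with library totals alone (0.20, adjusted p = 0.0385), a scaling that moves the median of all genes to 0.099. SNHG19 changed sign with upper-quartile scaling (0.0039), library totals (0.059) and the GC and length correction (0.19), and without siMock replicate 2 (0.061) or siFUBP1 replicate 3 (6.0e-04), ranged from -0.16 to 0.061 over the fits without 1 sample, and was never called. The cause was not tested. The number of members called higher was 15 with DESeq2, 17 with limma on either pseudocount and 15 at an adjusted p below 0.01, and the number called lower was 2 in each. A fold above 2 was passed by 4 members with limma on log2(FPKM + 1), where the median was 0.51, and by 4 with the GC and length correction. With limma on log2(FPKM + 0.1), 6 members passed it and the median was 0.65. Among members without exonic overlap with a protein-coding gene or another member, fewer by construction, 8 were higher, 0 lower and 4 passed a fold of 2. Leaving out 1 sample gave 15 to 18 members higher, 2 lower, 4 to 8 past a fold of 2 and a median of 0.71 to 0.79. The fewest were without siFUBP1 replicate 2 (4) and without siMock replicate 1 (5). Of the protein-coding hosts, library totals gave 13 higher and 5 lower, the GC and length correction 13 lower, and leaving out 1 sample 5 to 10 lower. Replicate numbers did not pair the samples: deviations of same-numbered samples correlated at -0.0047, 0.017 and 0.12, and 2 of 6 samples correlated best with their own number. With the replicate block, 18 members were higher, 2 lower and 8 past a fold of 2. Depth limits SNHG9, SNHG26, SNHG28 (ENSG00000256029) and the untested members most, apart from ENSG00000188004, which has no exonic base of its own. SNHG25 also shares 135 of its 278 exonic bases with a nested snoRNA row, and the part of this in its low count was not tested.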
